A study of Mus musculus with 9 samples.

Results

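Interferon response genes are the genes that cells switch on when interferons, the cytokines of antiviral and immune defence, bind their receptors. They were taken here as a list of 47 mouse genes, 29 of the type I interferon response and 18 of the interferon gamma response, and were found through the array's gene annotation. For 43 of the 47 a probe set named that gene alone, and where a gene had several the brightest over the 9 arrays was used. Isg15, Gbp4 and Tgtp1 were read only by a probe set that also names a further gene, and Ifi44 was named by none, so these were not analysed here. Of the 43, 31 passed a filter on dim values (log2 above 5 in at least 3 of 9 arrays), 18 of the type I and 13 of the gamma list, and were tested among 9697 genes.

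The samples were quadriceps femoris, a thigh muscle, of 9 female mice labelled as a C57Bl/6 HT transgenic line, in which a self MHC class I protein is overexpressed in skeletal muscle once doxycycline is withdrawn. Control mice (n = 3) stayed on doxycycline and their age at death was 35 days. Early mice (n = 3) came off doxycycline at 21 days and were killed at 35 days. Late mice (n = 3) came off it at 35 days and the sample labels put their age at death at 50 days. The protocol describes the controls as littermates with a single transgene, whereas the strain label is the same in all groups, so a difference in genotype cannot be told apart from drug and induction. Controls and early mice were younger than the late mice, and early and late mice also began induction at different ages. Age and induction therefore cannot be told apart in late against control or in early against late. In the mouse model usually called HT, the muscle creatine kinase promoter drives the transactivator of the transgene, but the labels do not name a promoter. Values are log2 expression, each value is 1 array of 1 mouse, and errors are SD (n = 3) for a group and SE for a difference.

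Type I interferons signal through Ifnar1 and Ifnar2 and the kinases Jak1 and Tyk2 to transcription factors that bind the interferon-stimulated response element (ISRE) in the promoters of antiviral genes. Interferon gamma signals through Ifngr1 and Ifngr2 and the kinases Jak1 and Jak2 to factors that bind the gamma-activated site (GAS) and switch on the guanylate-binding proteins, the immunity-related GTPases and chemokines that attract T cells. In inflamed muscle these genes are known for their rise in fibres and in infiltrating cells, and interferon gamma is a known inducer of MHC class I itself.

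Promoter sequences show the 2 kinds of element. RefSeq promoter windows of 300 bases, from 250 before to 50 after the start of transcription (build GRCm38.p6), were found for 35 of the 47 genes. The ISRE core was searched as GAAA, any 2 bases and GAAA again, or on the other strand as TTTC, any 2 bases and TTTC, and was found in 19 of the 35 genes, against 3.44% of all 32851 windows. The GAS was searched as TTCNNNGAA, which reads the same on both strands, and was found in 11 of the 35, against 8.30% of all windows. Windows of 1 gene can overlap or repeat, and a match is a description of letters, not a measured binding site. The sequences below are the stretches upstream of the start for the genes whose arrays are described in most detail, with matches in capitals. Cxcl10 and Rsad2 are shown because they stood highest above the controls in early mice, and each held 1 ISRE core, at 213 and 120 bases before the start.
Cxcl10 (chr5:92348890-92349129, minus strand): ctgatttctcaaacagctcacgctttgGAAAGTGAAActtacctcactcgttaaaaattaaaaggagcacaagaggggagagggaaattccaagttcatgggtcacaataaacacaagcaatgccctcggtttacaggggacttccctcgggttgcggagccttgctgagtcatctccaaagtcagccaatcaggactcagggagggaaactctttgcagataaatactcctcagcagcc
Rsad2 (chr12:26456453-26456592, minus strand): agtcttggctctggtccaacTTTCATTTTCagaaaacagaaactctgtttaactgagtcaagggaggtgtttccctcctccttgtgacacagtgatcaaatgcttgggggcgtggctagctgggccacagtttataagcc

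Ifit1 and Ifit3, antiviral proteins that bind foreign RNA, are shown because each carried 2 ISRE cores and both were at their lowest in the same late array.
Ifit1 (chr19:34640769-34640888, plus strand): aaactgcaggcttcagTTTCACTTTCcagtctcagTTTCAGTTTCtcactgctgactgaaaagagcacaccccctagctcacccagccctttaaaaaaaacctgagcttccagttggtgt
Ifit3 (chr19:34583359-34583528, plus strand): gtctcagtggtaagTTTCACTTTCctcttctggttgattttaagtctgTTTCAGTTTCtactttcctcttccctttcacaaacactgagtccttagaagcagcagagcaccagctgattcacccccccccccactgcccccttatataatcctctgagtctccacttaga

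Igtp and Irgm2, immunity-related GTPases, are shown with Gbp2 and Gbp7, guanylate-binding proteins, because late 2 and late 3 lay on opposite sides of the controls for Gbp7 and for the other 3. In Igtp and Irgm2 a GAS was followed by an ISRE core with the starts 11 bases apart, an arrangement found in 5 of all 32851 windows, 3 of them those of Igtp, Irgm2 and Tgtp1. These genes are close relatives and their promoters are alike around the pair, so they are not independent examples. Gbp2 held an ISRE core alone, and Gbp7 held an ISRE core and 2 GAS matches further upstream.
Igtp (chr11:58199456-58199555, plus strand): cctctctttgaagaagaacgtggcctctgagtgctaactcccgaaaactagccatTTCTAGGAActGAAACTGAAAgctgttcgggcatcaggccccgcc
Irgm2 (chr11:58214877-58214976, plus strand): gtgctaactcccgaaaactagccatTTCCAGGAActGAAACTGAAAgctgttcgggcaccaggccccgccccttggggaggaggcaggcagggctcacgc
Gbp2 (chr3:142620563-142620662, plus strand): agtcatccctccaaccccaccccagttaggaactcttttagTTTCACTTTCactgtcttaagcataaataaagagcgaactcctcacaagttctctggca
Gbp7 (chr3:142530216-142530335, plus strand): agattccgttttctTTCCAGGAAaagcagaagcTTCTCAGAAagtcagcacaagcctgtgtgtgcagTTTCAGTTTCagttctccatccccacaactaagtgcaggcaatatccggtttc

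The label check and the arrays that stood apart come before the results. The class I heavy chain gene H2-K1 stood at 10.88, 10.47 and 10.21 in control 1, 2 and 3, at 14.67, 14.63 and 14.69 in early 1, 2 and 3, and at 14.20, 13.11 and 14.31 in late 1, 2 and 3. All induced arrays thus lay above all controls, and the early arrays were nearly equal. Late 1 stood apart in genes of neutrophils and their marrow precursors. S100a8, a calcium-binding protein of neutrophils, was at 13.94 in late 1 and between 2.55 and 2.94 in the other 8 arrays. S100a9, its partner, was at 13.87 in late 1 and between 2.68 and 2.82 elsewhere. Mpo and Elane, granule enzymes made in neutrophil precursors, were at 8.96 and 6.56 in late 1 and at most 2.14 and 2.21 elsewhere. Of the 8 neutrophil markers listed 6 had a probe set of their own, and Csf3r (4.06) and Cxcr2 (2.55) stayed under the filter's floor of 5 in late 1. Jchain, a plasma cell gene, was at 6.41 in late 1 and at most 2.59 elsewhere. Muscle fibre markers (12 of 12 tested) had a median within 0.10 of the control mean in every array, but this median hides Myh7. That marker stood at 7.10, 2.81 and 9.55 in controls and 10.96, 2.78 and 2.79 in early mice. In late 1, 2 and 3 it was at 13.37, 12.28 and 5.63, so late 1 was its highest array.

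None of the 31 tested interferon response genes passed the test in any of the 3 comparisons. The test was limma's moderated test on the whole table with Benjamini-Hochberg adjustment over 9697 genes, and a gene was called at an adjusted p under 0.05. In early against control 0 of 31 were called, where 1.19% of all genes were, and 2 of 31 had an unadjusted p under 0.05, against 18.5% of all genes. In late against control 0 of 31 were called (0.206% of all genes) and 1 of 31 had an unadjusted p under 0.05 (17.3% of all genes). In early against late 0 of 31 were called (11.5% of all genes) and 4 of 31 had an unadjusted p under 0.05 (34.2% of all genes). The smallest adjusted p was 0.187, 0.136 and 0.0596 in these comparisons. With limma's array weights, which give less weight to arrays that fit the group means poorly, 9, 1 and 4 members were called, where 34.4%, 10.7% and 36.4% of all genes were called.

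**Figure D1:**
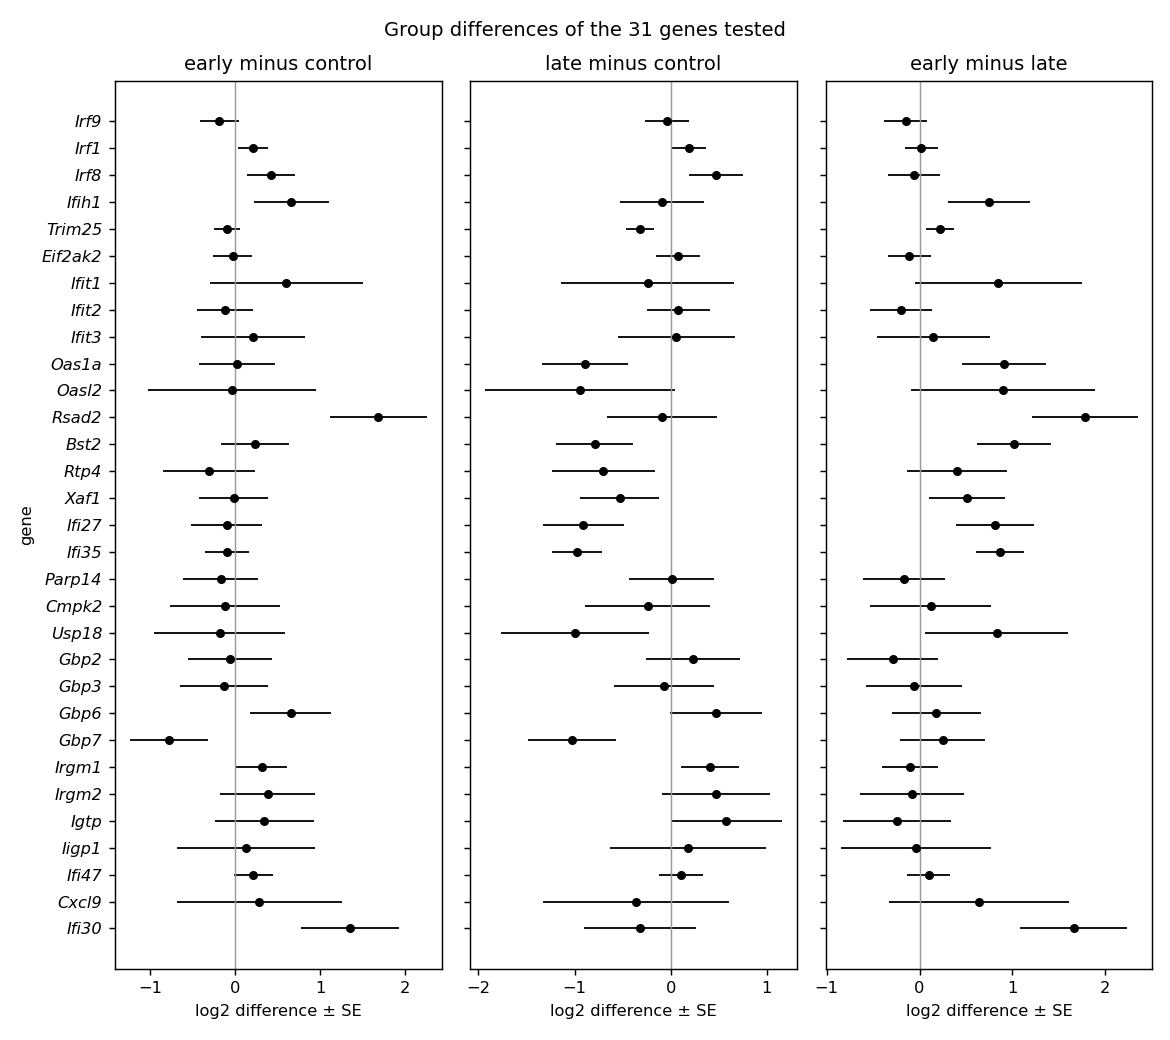
Log2 differences ± SE of the 31 tested genes in the 3 comparisons (x axes, log2 scale), from the limma fit to all 9 arrays. Rsad2 and Ifi30 lie farthest to the right in early minus control, at 1.68 and 1.35, and none of the 31 passed the test in any panel.

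The groups rarely lay apart. In early against control the 3 arrays of each group did not overlap for 2 of 31 members, against 23.6% of all genes. In late against control this was 3 of 31 (31% of all genes), and in early against late 2 of 31 (32.1% of all genes). The medians of the 31 differences were 0.02, -0.09 and 0.18, beside -0.03, 0.01 and -0.03 over all genes tested. Members were positive in 16 of 31, 13 of 31 and 20 of 31 cases. The early groups apart were those of Rtp4 and Gbp7 (lower than control), the late ones those of Ifi35, Gbp7 and Ifi30 (lower than control), and early lay above late mice for Bst2 and Ifi35. Differences between single mice of a group were larger than these medians, as the values by array show.

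**Figure D2:**
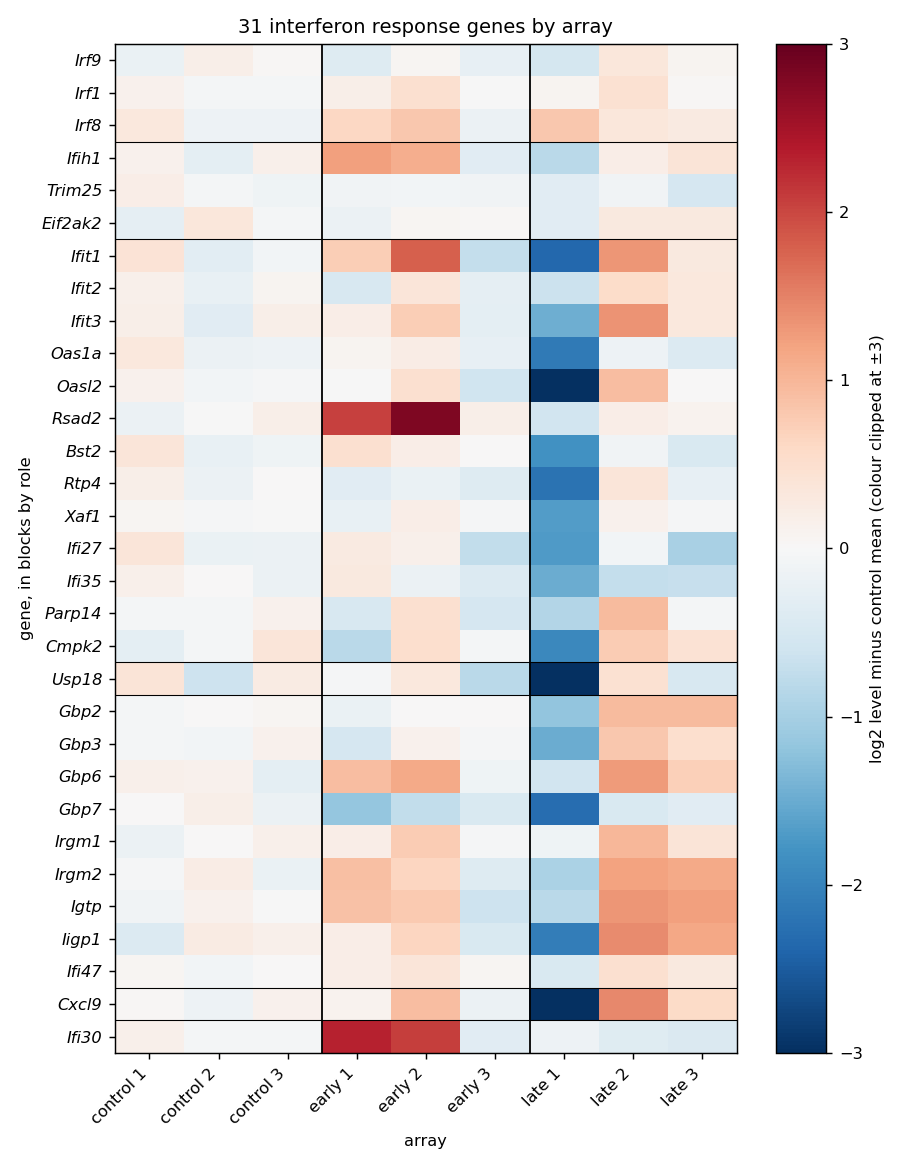
Log2 level of each tested gene minus its control mean (colour, clipped at 3 in either direction) in the 9 arrays (columns), with genes in blocks by role (rows). Late 1 is blue in most rows, with Oasl2 at -3.74, while Rsad2 and Ifi30 are red in early 1 and early 2 and not in early 3.

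The interferons themselves and markers of the lymphocytes that make interferon gamma were not measured above the floor. Of 14 listed interferon genes 8 had a probe set of their own, and the highest value of any in any array was 3.00. Ifng lay between 2.40 and 2.55 and Ifnb1 between 2.26 and 2.42. Of 15 T and NK cell markers 12 had a probe set of their own and 0 passed the filter, the highest value being 3.87 for Cd8a in early 2. In bulk muscle, few cells of a type and little RNA per cell cannot be told apart, and a dim probe set gives no measure of absence.

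Among 11 receptors, kinases and Stat proteins of the pathway, 9 were tested. In early against control 0 of 9 were called (1.19% of all genes), 7 were positive and the median was 0.44. The groups did not overlap for 1 of 9, against 23.6% of all genes. This was Tyk2, the kinase on the type I receptor. It stood at 6.16, 6.26 and 6.24 in the controls and at 7.28, 7.55 and 6.29 in early 1, 2 and 3 (0.82 ± 0.29, adjusted p = 0.202). Early 3 was thus barely above the highest control. Jak2 (-0.84 ± 0.33, adjusted p = 0.227) and Stat3 (0.47 ± 0.19, adjusted p = 0.237) came next by p. Late against control held 0 of 9 called (0.206% of all genes). There the groups also lay apart for Tyk2, Jak1 and Jak2 (3 of 9, higher in late mice) and for Ifnar2 and Ifngr2 (2 of 9, lower), against 31% of all genes in either direction. In early against late 2 of 9 were called, in opposite directions, where 11.5% of all genes were called. Ifngr2, the other chain of the gamma receptor, was at 10.78, 9.76 and 9.48 in early and 8.57, 8.44 and 9.04 in late mice, higher by 1.32 ± 0.32 (adjusted p = 0.0368). Jak2, the kinase bound to it, was at 7.28, 8.10 and 8.79 in early and 9.23, 9.62 and 9.50 in late mice, lower by 1.39 in early mice (difference -1.39 ± 0.33, adjusted p = 0.0341). These calls were narrow, and on leaving out each array in turn Ifngr2 was called in 2 of 9 cases (adjusted p 0.00785 to 0.106) and Jak2 in 1 of 9 (adjusted p 0.00225 to 0.0991).

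Of 19 genes upstream of interferon 10 were tested. In early and in late mice against control 0 were called, where 1.19% and 0.206% of all genes were. In early against late 1 of 10 was called, near the share of 11.5% of all genes. It was Irf3, the factor that induces type I interferon, higher by 0.80 ± 0.17 in early mice (adjusted p = 0.0293). On leaving out 1 array Irf3 was called in 3 of 9 cases (adjusted p 0.00502 to 0.0837). Of 11 signal inhibitors 10 were tested. In early against control 1 of 10 was called, where 1.19% of all genes were. Early against late also held 1 of 10 called, near the share of 11.5% of all genes. Cish, a suppressor of STAT5 signalling, was the gene called in both. Its levels were 5.95, 6.60 and 6.84 in controls, 2.90, 3.18 and 4.97 in early and 7.47, 7.74 and 7.90 in late mice. It fell by 2.78 in early against control (-2.78 ± 0.49, adjusted p = 0.0388), a call kept in 1 of 9 cases on leaving out an array (adjusted p up to 0.174). The early values lay under the floor, so the size is uncertain. Against late mice Cish was lower by 4.02 in early mice (difference -4.02 ± 0.49, adjusted p = 0.00578) and was called in 9 of 9 cases. Socs3, which blocks Jak kinases, differed by -0.41 ± 0.40 in early mice and did not pass.

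None of the transcription factors passed the test. Stat2 and Irf7 stayed under the filter, and Irf1, Irf8 and Irf9 were tested. Irf1, an early target of interferon gamma, stood at 7.68, 7.50 and 7.48 in controls, 7.73, 8.04 and 7.54 in early and 7.65, 8.01 and 7.59 in late mice. Its groups overlapped, with differences of 0.21 ± 0.18 and 0.19 ± 0.18 against control (adjusted p = 0.533 and 0.606). Irf8, a factor of macrophages and dendritic cells as well as a gamma target, stood at 6.93, 6.44 and 6.45 in controls, 7.24, 7.41 and 6.43 in early and 7.41, 6.95 and 6.88 in late mice. Early 3 alone among the induced mice lay below all controls for Irf8 (early 0.42 ± 0.28, adjusted p = 0.431; late 0.47 ± 0.28, adjusted p = 0.405). Irf9, which joins the ISRE-binding complex, stood at 6.63, 7.0 and 6.87 in controls, 6.45, 6.89 and 6.58 in early and 6.30, 7.16 and 6.91 in late mice. Its groups overlapped, with differences of -0.19 ± 0.23 in early and -0.04 ± 0.23 in late mice (adjusted p = 0.673 and 0.948).

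Cxcl10 stood farther above its controls than any other member in a single array, and did so in 2 of the 3 early mice. Cxcl10 is a chemokine that attracts activated T cells and a target of both kinds of interferon. It stood at 3.63, 3.66 and 3.69 in the controls, at 8.97, 10.26 and 3.68 in early 1, 2 and 3, and at 3.63, 3.65 and 3.72 in the late mice. Early 1 and early 2 were thus far above every other array, and early 3 lay among the controls. Since 2 arrays were above the floor, Cxcl10 did not pass the filter and was not among the genes tested. Counted from the floor of 5, early 1 was 15.7-fold and early 2 38.3-fold above the controls. In a fit with no filter the early difference was 3.98 ± 1.49 (unadjusted p = 0.0308, adjusted p = 0.351). Cxcl9, the related chemokine induced mainly by interferon gamma, did not share this pattern. Its levels were 5.70, 5.50 and 5.77 in controls, 5.77, 6.57 and 5.48 in early and 2.56, 7.11 and 6.24 in late mice, so the highest was late 2 and the lowest late 1. The early difference of Cxcl9 was 0.28 ± 0.97 (adjusted p = 0.897).

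Rsad2 (viperin), an antiviral enzyme, and Ifi30, the thiol reductase of lysosomes that opens antigens for class II presentation, followed the same split among the early mice. Rsad2 stood at 6.62, 6.79 and 6.98 in the controls, 8.85, 9.61 and 6.97 in early 1, 2 and 3, and 6.22, 6.99 and 6.89 in the late mice. Early 1 and early 2 were 4.17-fold and 7.03-fold above the control mean, and early 3 lay within the control range. The early difference of 1.68 ± 0.57 (3.21-fold) did not pass (adjusted p = 0.187). On other probe sets, dim in controls, early 1 and early 2 gave 4.94 and 6.35, and 6.08 and 7.83, against at most 3.13 and 3.99 in the controls. Ifi30 stood at 9.14, 8.92 and 8.92 in controls, 11.30, 11.06 and 8.66 in early and 8.84, 8.63 and 8.56 in late mice. It was 4.95-fold and 4.19-fold above the control mean in early 1 and early 2, below all controls in early 3, and the late group lay below the controls without overlap. The differences were 1.35 ± 0.58 in early mice (adjusted p = 0.262) and -0.32 ± 0.58 in late mice (adjusted p = 0.818).

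Whether Rsad2 and Ifi30 were called turned on early 3. It was the early array without their rise, so small p-values after its removal are no independent evidence of a rise. Without early 3 Rsad2 differed from control by 2.44 ± 0.29 (adjusted p = 0.00178) and Ifi30 by 2.19 ± 0.15 (adjusted p = 0.000278). These 2 of 31 members were called, where 18.1% of all genes were called in that fit. Set against late mice without early 3, Rsad2 (2.53 ± 0.29), Ifi30 (2.50 ± 0.15), Ifih1 (1.24 ± 0.34) and Ifi35 (1.04 ± 0.27) were called, 4 of 31 where 30.5% of all genes were. With all arrays the early against late differences were 1.78 ± 0.57 for Rsad2 (adjusted p = 0.0716) and 1.66 ± 0.58 for Ifi30 (adjusted p = 0.0878). On the 1 probe set read for H2-K1, early 3 stood as high as early 1 and early 2.

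**Figure D3:**
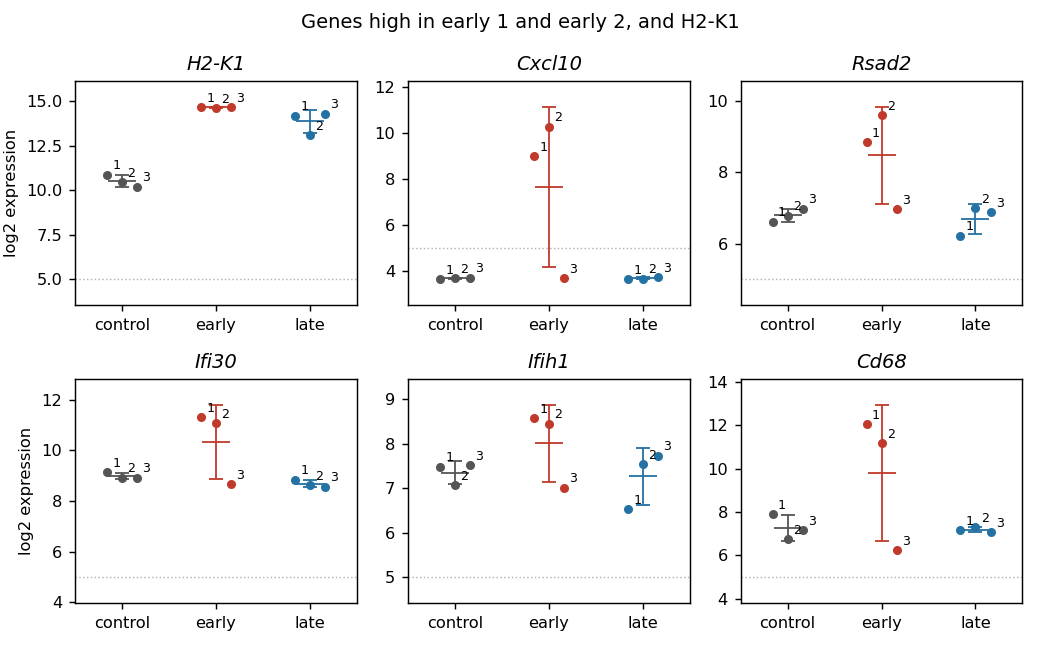
Log2 expression (y axes) of H2-K1, 4 interferon response genes and the macrophage marker Cd68 in each array (points, labelled by replicate), with the group mean and SD (bars, n = 3) and the filter's floor of 5 (dotted). For Cxcl10 early 1 and early 2 stand at 8.97 and 10.26 and early 3 at 3.68, while H2-K1 lies between 14.63 and 14.69 in all early mice.

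Among all tested members, early 1 and early 2 lay above all controls for 12 of 31, against 25.8% of all genes, and below all controls for 2 of 31, against 27.5%. The 12 were Rsad2, Ifit1, Ifit3, Ifih1, Irf1, Irf8, Ifi30, Ifi47, Gbp6, Irgm1, Irgm2 and Igtp. Early 3 lay above all controls for 0 of 31, against 20.9% of all genes, and below all controls for 18 of 31, against 34.8%. Early 2 was the highest of all arrays for 4 of 31 (9.35% of all genes). Some macrophage markers had the same split. Of the 12 tested of 14 macrophage and monocyte markers, early 1 and early 2 lay above all controls for 6 (Adgre1, Cd68, Lyz2, Cd14, C1qb and Tyrobp), against 25.8% of all genes. Csf1r, C1qa, C1qc and Fcer1g in early 2 lay below control 1, and Mrc1 and Cd163 were within or below the control range in both arrays. The median of the 12 relative to the control mean was 0.79, 0.33 and -0.25 in early 1, 2 and 3 and 0.39 in control 1, and the mean level of the list spanned 8.38 to 8.92 in controls, 8.23 to 9.63 in early and 8.06 to 8.56 in late mice. Cd68, a lysosomal protein of macrophages and the most extreme of these markers, was at 12.06 and 11.17 in early 1 and early 2 and at 6.23 in early 3, against 6.74 to 7.90 in controls. Adgre1, the F4/80 antigen, was at 7.87, 8.16 and 7.45 in early mice against 7.48 to 7.78 in controls. The part of these cells in the rise of single members was not tested.

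The sensors of foreign nucleic acid were represented by Ifih1, Trim25 and Eif2ak2, while Zbp1 and Dhx58 stayed under the floor. Ifih1 (MDA5), which detects long double-stranded RNA, stood at 7.48, 7.06 and 7.51 in controls, 8.57, 8.45 and 7.01 in early and 6.53, 7.54 and 7.73 in late mice. It followed Rsad2 in being high in early 1 and early 2 and not in early 3 (0.66 ± 0.44, adjusted p = 0.44). Trim25, the ubiquitin ligase that activates the RNA sensor RIG-I, stood at 9.31, 9.05 and 8.97 in controls, 9.02, 9.03 and 9.0 in early and 8.76, 9.01 and 8.61 in late mice. Its differences were -0.10 ± 0.15 in early and -0.32 ± 0.15 in late mice (adjusted p = 0.761 and 0.319). On another bright probe set they were -0.05 and -0.03. Eif2ak2, the kinase PKR that halts translation, stood at 5.77, 6.40 and 5.98 in controls, 5.86, 6.11 and 6.09 in early and 5.70, 6.35 and 6.35 in late mice. Its groups overlapped, and it differed by -0.03 ± 0.23 and 0.08 ± 0.23 (adjusted p = 0.957 and 0.884).

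Late 1 was the other array that stood apart, and it was low across the list. It was the lowest of the 9 arrays for 26 of 31 members, against 19% of all genes, and below all controls for 28 of 31, against 36.8%. All 18 tested type I members were below all controls in late 1 on the probe sets used. On another bright probe set of Trim25, late 1 (8.38) lay within the control range (8.30 to 8.41). Late 1 lay at least 1 below the control mean for 16 of 31 members, against 6.50% of all genes. Late 2 and late 3 did so for 0 of 31, against 2.29% and 2.28% of all genes. In late 1, 7 of 31 members were under the floor of 5, against 3.68% of all genes. Counted from the floor, Ifit1 (-0.15), Oas1a (-0.67), Usp18 (-0.85) and Cxcl9 (-0.66), all among the 16, lay less than 1 below the control mean. The median of the type I members over the control mean was -1.58 in late 1, 0.32 in late 2 and -0.01 in late 3, and the median of the gamma members was -0.81, 0.94 and 0.50. Late 2 was the highest array for 17 of 31 members, against 11.5% of all genes. Irf1, Irf8 and Irgm1 were the members not below all controls in late 1. The 25 tested interferon targets outside the list had a median of -0.64 in late 1, and 20 of 25 lay below all controls there.

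The antiviral effectors had a median of -1.69 in late 1, and several lay under the floor there. Oasl2, of the oligoadenylate synthetase family, stood at 6.27, 6.08 and 6.11 in controls, 6.14, 6.65 and 5.55 in early and 2.41, 7.08 and 6.16 in late mice. Usp18, the protease that removes Isg15 from proteins and damps the type I receptor, stood at 6.23, 5.22 and 6.10 in controls, 5.81, 6.17 and 5.04 in early and 2.86, 6.30 and 5.38 in late mice. For both genes late 1 was more than 2 below every other array and late 2 was the highest. Counted from the floor, late 1 fell short of the control mean by 1.16 for Oasl2 (-1.16) and by 0.85 for Usp18 (-0.85), so the full sizes of -3.74 and -2.99 are uncertain. Counted this way Gbp7 (-2.29), Rtp4 (-2.22), Iigp1 (-2.07) and Bst2 (-1.82) lay farther below their control means. Brighter members had the same lowest array, above the floor. Rtp4, a chaperone of receptors with antiviral activity, stood at 8.75, 8.41 and 8.59 in controls, 8.24, 8.40 and 8.20 in early and 6.36, 8.94 and 8.33 in late mice, which puts late 1 4.66-fold below the control mean. For Bst2 (tetherin), which holds virus particles on the cell, the levels were 8.58, 7.99 and 8.09, then 8.70, 8.42 and 8.23, then 6.41, 8.13 and 7.77 in the same order.

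The late differences of these genes did not pass, at -0.94 ± 0.99 for Oasl2, -1.0 ± 0.77 for Usp18, -0.70 ± 0.54 for Rtp4 and -0.79 ± 0.40 for Bst2 (adjusted p = 0.66, 0.531, 0.533 and 0.346). Bst2 was higher in early than in late mice with no overlap (1.02 ± 0.40, adjusted p = 0.114). Without late 1 the Oasl2 difference turned to 0.47 ± 0.35 (adjusted p = 0.62). Of the 13 tested effectors 10 were negative in late mice with all arrays (median -0.53), and 4 were negative without late 1 (median 0.14). The neutrophil markers that stood out in late 1 were under the floor in late 2 and late 3, and the fibroblast markers (6 of 6 tested) had a median of -0.95 in late 1 against -0.09 in both other late arrays. The macrophage markers had a median of -0.49 in late 1 against 0.00 and -0.05 in late 2 and late 3, and Ighm, the IgM heavy chain, was at 7.86 against 11.59 and 12.28. Not every marker in these lists was low in late 1. Dcn (14.09) lay within the control range, and Col1a1 (13.33) was no lower than in late 2 (13.29). Of the macrophage markers 6 of 12 lay below all controls, against 36.8% of all genes, and Tyrobp (9.29) lay above all controls (at most 9.22). The part of these cells in the low values of late 1 was not tested.

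**Figure D4:**
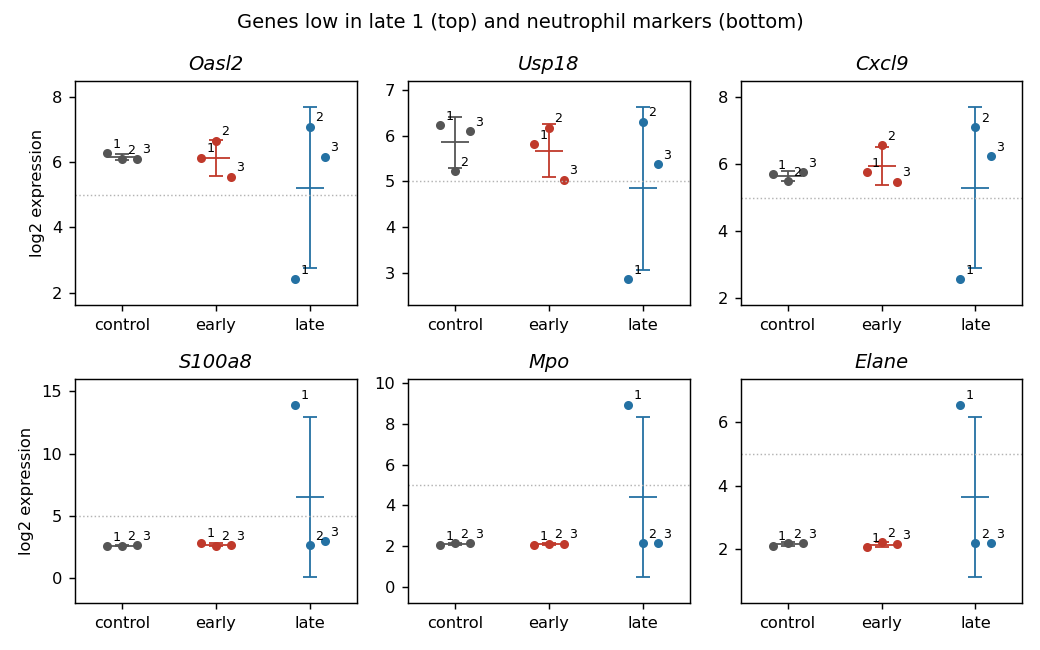
Log2 expression (y axes) of Oasl2, Usp18 and Cxcl9 (top) and of the neutrophil genes S100a8, Mpo and Elane (bottom) in each array (points, labelled by replicate), with group mean and SD (bars, n = 3) and the filter's floor of 5 (dotted). Late 1 is the lowest array in the top row, at 2.41, 2.86 and 2.56, and the highest in the bottom row, at 13.94, 8.96 and 6.56.

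Ifit1, Ifit3, Cmpk2 and Oas1a had the same low value. Ifit1 stood at 5.46, 4.76 and 4.97 in controls, 5.81, 6.85 and 4.34 in early and 2.71, 6.38 and 5.36 in late mice. Ifit3 stood at 6.87, 6.35 and 6.88, then 6.91, 7.43 and 6.39, then 5.23, 8.04 and 7.01 in the same order, so late 2 was the highest array and late 1 the lowest. Cmpk2, a mitochondrial nucleotide kinase that neighbours Rsad2 in the genome, did not share its early pattern. It was at 5.89, 6.12 and 6.55 in controls, 5.40, 6.69 and 6.12 in early and 4.26, 6.95 and 6.63 in late mice. Oas1a, a sensor enzyme of double-stranded RNA, was at 5.99, 5.50 and 5.51 in controls, 5.75, 5.90 and 5.41 in early and 3.56, 5.50 and 5.26 in late mice. Late 1 was the lowest array of Oas1a, but it lay under the floor of 5 for Ifit1, Cmpk2 and Oas1a. Counted from the floor, it was -0.15, -1.19 and -0.67 from their control means, so the full sizes are uncertain. Ifit2, Parp14 and Xaf1, which promotes cell death, differed from control by between -0.17 and 0.08 in early and late mice, except Xaf1 at -0.53 ± 0.41 in late mice, none of which passed.

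Ifi35 was below the controls in all late mice, and Ifi27 in late 1 and late 3. Ifi35, a partner of Nmi in innate signalling, stood at 11.53, 11.37 and 11.19 in controls, 11.67, 11.19 and 10.94 in early and 9.87, 10.64 and 10.66 in late mice. Late mice lay below controls and below early mice with no overlap, at -0.97 ± 0.26 against control (adjusted p = 0.136), and early exceeded late mice by 0.87 ± 0.26 (adjusted p = 0.0596). On its other bright probe sets Ifi35 differed by -0.68 and -0.96 in late mice. Ifi27, a mitochondrial protein induced by type I interferon, stood at 11.11, 10.54 and 10.57 in controls, 11.02, 10.90 and 10.01 in early and 9.05, 10.67 and 9.77 in late mice. Late 2 overlapped the controls here (-0.91 ± 0.42, adjusted p = 0.304).

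Among the GTPases induced by interferon gamma, late 2 and late 3 were high while late 1 was low. Of the 9 tested, late 2 and late 3 both lay above all controls for 8, against 22.8% of all genes; the exception was Gbp7. Gbp2 stood at 8.43, 8.51 and 8.55 in controls, 8.30, 8.51 and 8.51 in early and 7.31, 9.44 and 9.43 in late mice. The controls and early mice were nearly equal, and the late mice split to either side. Late 2 and late 3 were 1.92-fold and 1.91-fold above the control mean and late 1 2.27-fold below it. Igtp stood at 7.37, 7.59 and 7.45 in controls, 8.35, 8.25 and 6.84 in early and 6.67, 8.79 and 8.70 in late mice. Irgm2 stood at 7.95, 8.21 and 7.77 in controls, 8.88, 8.62 and 7.58 in early and 7.04, 9.17 and 9.11 in late mice. Igtp and Irgm2 thus had the same split, with early 3 and late 1 below every control and the other 4 induced mice above them. Ifih1, whose promoter window held no GAS match, and B2m split in the same way. A link between the split and promoter elements was not tested.

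Iigp1, an immunity-related GTPase that attacks the vacuoles of parasites, had the widest spread of the class. It stood at 7.60, 8.26 and 8.16 in controls, 8.22, 8.66 and 7.54 in early and 5.94, 9.43 and 9.18 in late mice. Late 2 was 2.68-fold above and late 1 4.19-fold below the control mean. Its other probe set gave 0.59 in place of 0.13 for the early difference. Irgm1, a regulator of autophagy, stood at 7.63, 7.82 and 7.97 in controls, 8.0, 8.58 and 7.77 in early and 7.67, 8.80 and 8.19 in late mice, and was within the control range in late 1. Gbp6 was at 7.32, 7.28 and 6.87 in controls, 8.09, 8.30 and 7.02 in early and 6.57, 8.43 and 7.87 in late mice, so early 3 was within the control range and late 1 below it. Gbp3 ranged from 5.61 in late 1 to 7.92 in late 2. Ifi47, a further immunity-related GTPase, stood at 5.72, 5.57 and 5.66 in controls, 5.86, 6.01 and 5.71 in early and 5.20, 6.15 and 5.94 in late mice, the narrowest spread among these GTPases.

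With all arrays none of these GTPases passed: the late differences were 0.23 ± 0.49 for Gbp2, 0.58 ± 0.58 for Igtp, 0.47 ± 0.56 for Irgm2 and 0.18 ± 0.81 for Iigp1 (adjusted p = 0.846, 0.644, 0.702 and 0.935). Without late 1 they were 0.94 ± 0.13, 1.27 ± 0.41, 1.17 ± 0.35 and 1.30 ± 0.33 (adjusted p = 0.0667, 0.259, 0.239 and 0.207), and the median of the 9 GTPases moved from 0.23 to 0.94. In that fit all 9 were lower in early than in late mice on the probe sets used (median -0.78). On the other probe set of Gbp7 the early arrays (6.81, 6.41 and 7.35) straddled late 2 and late 3 (6.82 and 6.89). Without late 1 Gbp2 was called in early against late (-1.0 ± 0.13, adjusted p = 0.0213), 1 of 31 members where 3.03% of all genes were called. Late 1 was the late array low for Gbp2, so this call is no independent evidence of a difference. Further probe sets of Gbp2, Gbp6, Gbp7 and Iigp1 gave late differences of 0.40, 1.09, -1.07 and -0.13 with all arrays.

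Gbp7 ran against its class. It stood at 8.71, 8.88 and 8.53 in controls, 7.55, 7.96 and 8.25 in early and 6.42, 8.25 and 8.35 in late mice. Every induced array lay below every control on this probe set, and Gbp7 was the only tested member for which both induced groups did. The differences were -0.78 ± 0.46 in early and -1.03 ± 0.46 in late mice (adjusted p = 0.38 and 0.297), and -0.54 and -1.07 on the other probe set. On that other probe set early 3 (7.35) lay above control 3 (7.12), so early mice and controls overlapped there. The early and late comparisons share the 3 controls, so the 2 differences are not independent.

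**Figure D5:**
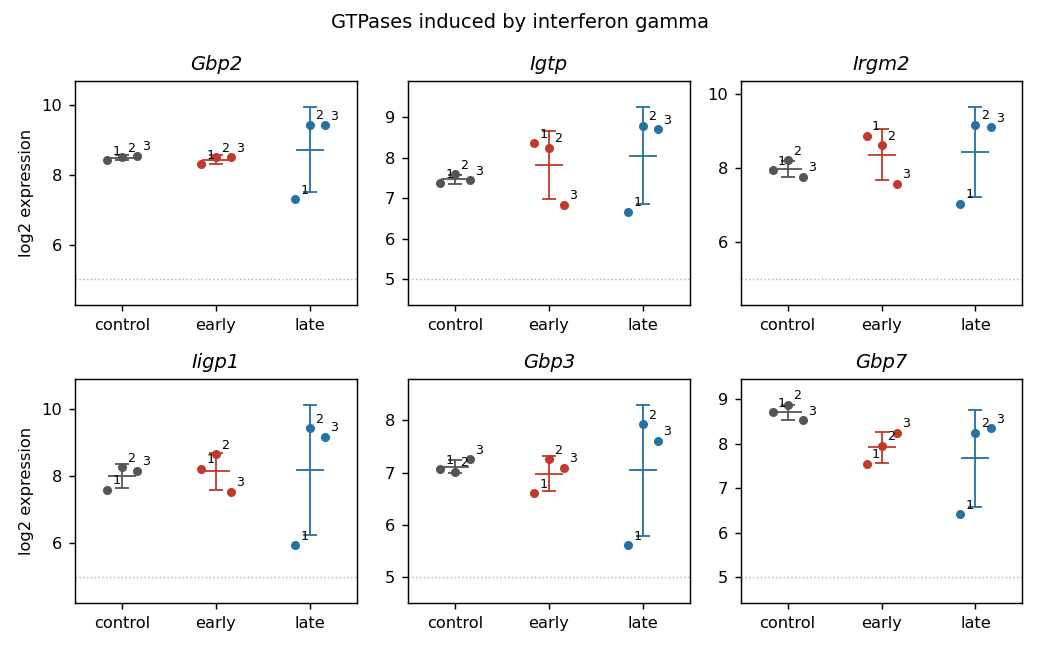
Log2 expression (y axes) of 6 GTPases induced by interferon gamma in each array (points, labelled by replicate), with group mean and SD (bars, n = 3) and the filter's floor of 5 (dotted, where in range). Late 2 and late 3 lie above and late 1 below the controls for Gbp2, Igtp, Irgm2, Iigp1 and Gbp3, while all induced arrays lie below the controls for Gbp7.

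The other 12 members with a probe set of their own did not pass the filter, Cxcl10 among them. Mx1, Mx2, Oas3, Oasl1, Stat2, Zbp1, Dhx58, Socs1 and Cd274 were under 5 on all 9 arrays. Mx1, a GTPase that traps viral particles, lay between 2.75 and 3.07, and Mx2 between 2.10 and 2.23. Oas2 passed the floor in late 2 alone (5.19, otherwise at most 4.27), and Irf7, the main amplifier of type I interferon, in early 2 alone (5.18, with controls at 4.93, 4.38 and 4.30). Many genes that interferon is known to induce strongly were thus not measured here, and a filter of this kind keeps a gene through the arrays in which it is high.

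A further list held 49 interferon targets, such as class I loading and immunoproteasome genes. Of these 25 were tested and 0 were called in any comparison, with 2, 1 and 4 at an unadjusted p under 0.05 in early against control, late against control and early against late, against 18.5%, 17.3% and 34.2% of all genes. Their medians were -0.02, -0.15 and 0.20. In early against control the groups lay apart for 3 of 25, against 23.6% of all genes. These were Lgals9, Nmi and Psme1, all lower in early mice. Nmi had the smallest p of the list there (-0.40 ± 0.16, adjusted p = 0.237). Tor3a, an ATPase of the endoplasmic reticulum, was at 5.55, 5.54 and 5.71 in controls and 7.15, 6.45 and 5.57 in early 1, 2 and 3 (0.79 ± 0.34, adjusted p = 0.259), high in the same early mice as Rsad2. B2m, the light chain of MHC class I, was at 13.12, 13.07 and 13.18 in controls, 13.51, 13.85 and 12.65 in early and 12.18, 13.68 and 13.44 in late mice, so early 3 and late 1 were again below the controls. Trim30a (-0.80 ± 0.32, adjusted p = 0.259) had late mice below the controls without overlap. So did Ifitm2 and Psmb10, which makes 3 of 25, against 31% of all genes in either direction.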

How the data were processed

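Per the labels' protocols, quadriceps RNA was reverse transcribed from oligo(dT), biotin-labelled and hybridised, 1 Affymetrix array per mouse. The deposited values are log2 GCRMA expression, as the submitters' processing notes name the method, which corrects background by probe base composition and makes the arrays' distributions alike. Dim probe sets thus get nearly equal values, and a change of all genes at once is not visible. Of 45101 probe sets 34958 named 1 gene in the platform annotation. Array medians were 3.41 to 3.45, and 3 arrays per group limit the precision.

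Probe sets with log2 above 5 in at least 3 arrays were kept, with the brightest per gene (9697 genes). limma 3.58.1 (R 4.3.3) fitted 3 group means to all 9 arrays, with Benjamini-Hochberg adjustment over all genes, and was tested on simulated data. The labels do not say what mice share beyond their group, so p-values reflect how these samples differ, which may be technical in part. Correlations of same-numbered arrays' deviations across genes were 0.168, 0.201 and 0.16 for early and late arrays, so the replicate number was also fitted as a block. Control arrays gave 0.35, 0.11 and -0.0391 with early arrays and 0.0847, -0.165 and -0.11 with late ones. Alternatives varied filter, scaling, probe sets, arrays fitted and array weights.

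The members and lists were chosen with earlier results of these data known. Values in every array are given for the up to 3 smallest p of each role in a comparison and the 10 widest ranges. From the pathway lists, called genes and up to 3 with the smallest p in a comparison were named. Cxcl10, Irgm2, B2m, Socs3, Ifng, Ifnb1, the dim pathway genes and the marker genes were added after their values were seen.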

Additional observations from a re-analysis of the deposited data

Results flagged for a closer look

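Cxcl10, outside the tested genes because of the filter on dim values, reached 10.26 in early 2 and 8.97 in early 1, where the highest control was 3.69. Further Rsad2 probe sets outside the tests also rose above the floor of 5 with all controls under it: they reached 7.83 and 6.35 in early 2, where the highest controls were 3.99 and 3.13. Irf7 reached 5.18 in early 2 (highest control 4.93) and Oas2 5.19 in late 2 (highest control 4.27), both little above the floor. For Bst2 all early arrays lay above and all late arrays below the control mean, with a difference of 1.02 between early and late mice, which did not pass in limma's test (adjusted p = 0.114).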

How the results depend on the processing

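The number of members called was 0 in each comparison under all alternatives except limma's array weights (9, 1 and 4 called in early against control, late against control and early against late) and the removal of single arrays. Leaving out 1 array gave 0 to 2 called in early against control, 0 in late against control and 0 to 4 in early against late, with the calls arising without early 3 (2 and 4) or without late 1 (1). The median difference of the members lay between -0.07 and 0.24, between -0.45 and 0.31, and between -0.34 and 0.58 on leaving out 1 array, so its sign was not settled in any comparison; with array weights it was 0.35 in early against control. With the replicate number as a block, 0 members were called in each comparison and the medians stayed at 0.02, -0.09 and 0.18. The sign of an uncalled member changed in 127 of the fits of single members. Low values under the floor limit the sizes given for late 1.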

Other observations

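Some genes of the pathway lists that did not pass the filter had the early split of Cxcl10. Nlrc3, an inhibitor of nucleic acid sensing, was at 5.93 and 5.69 in early 1 and early 2, at 3.43 in early 3 and at most 3.46 in controls. Ticam1, an adaptor of Toll-like receptors, was at 5.91, 5.64 and 4.86 in early 1, 2 and 3 against 4.46 to 4.88 in controls. Ccl5, a chemokine, was at 3.19, 5.13 and 1.98, and Ccr2, a monocyte receptor, at 4.81, 6.62 and 3.99, against at most 2.00 and 3.96 in controls. Ighm, the heavy chain of IgM, went the other way, at 6.05, 7.12 and 10.92 in early 1, 2 and 3 against 10.51 to 11.13 in controls. Late 1 was not low for every interferon target: Ifitm1 was at 6.58 there and at most 4.14 in the other arrays.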
